A study of Mus musculus with 2 samples.

Results

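The proteins of the cytosolic ribosome were followed at the level of their mRNAs in the mouse heart with and without Med1, a subunit of the Mediator complex that links transcription factors to RNA polymerase II. The genes were chosen by symbol: Rpl or Rps followed by a number, with an optional letter, x or l suffix, plus Rplp0, Rplp1, Rplp2 and Rpsa, while Rps6k kinases and symbols with ps (pseudogenes) were left out. This rule gave 81 of the 22882 gene symbols measured. A cytosolic ribosome is built of a large (60S) and a small (40S) subunit, and a growing or working cell needs the protein parts of both in balanced amounts. Most of these mRNAs are short and abundant, and they belong to the 5′ TOP class, whose mRNAs begin with a C followed by a run of pyrimidines through which mTORC1 controls their translation. A few ribosomal proteins have paralogs with a narrower expression, and Rpl3l, a striated muscle paralog of Rpl3, is the one best known in the heart.

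Heart RNA was compared between Med1fl/fl mice (control), whose Med1 alleles carry loxP sites, and csMed1-/- mice, which have the same floxed alleles and an α-MyHC-Cre transgene. The Cre is driven by the α-myosin heavy chain promoter, so the deletion concerns cardiomyocytes and leaves Med1 intact in the other cells of the heart. All mice were untreated, 23 days old, of both sexes and on a C57BL6/J background. RNA of 5 hearts was pooled for each genotype and 1 library was made from each pool, so there are no replicates, no value has an error and no test between the genotypes could be made; a difference below is a difference between these 2 libraries.

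The unit is FPKM (fragments per kilobase of transcript, scaled per library), a level per length that can be compared between genes. How each library was scaled is not given in the sources used here. A ratio is csMed1-/- over control. Med1 itself stood at 3.38 FPKM in Med1fl/fl and 0.412 FPKM in csMed1-/- heart, a log2 ratio of -3.04. It reached 1 FPKM in the control library alone, and with 1 FPKM added to both values its log2 ratio was -1.63. The number of reads is unknown. If each library was scaled to its own mapped fragments, the spacing between the lowest values would be that of a csMed1-/- library sequenced 1.39 times as deeply as control. That scaling is not known, so the relative depth is not settled. Genes listed at 0 in either library, or under 1 FPKM in both, were left out, and 10489 genes were kept. Of these, 18.0% were lower by over 2-fold in csMed1-/- heart, 13.6% were higher by over 2-fold and 31.5% differed by over 2-fold either way.

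Of the 81 ribosomal protein genes, 79 were kept, and 1 of them, Rpl3l, was lower by over 2-fold, against 18.0% of all genes kept. None was higher by over 2-fold, against 13.6%. The other 78 lay between a log2 ratio of -0.95 (Rpl4) and 0.68 (Rpl41). The genes outside the filter were Rpl39l, at 0.285 FPKM in Med1fl/fl and 0.0459 FPKM in csMed1-/- heart, and Rpl10l, which was listed at 0 in both.

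**Figure D1:**
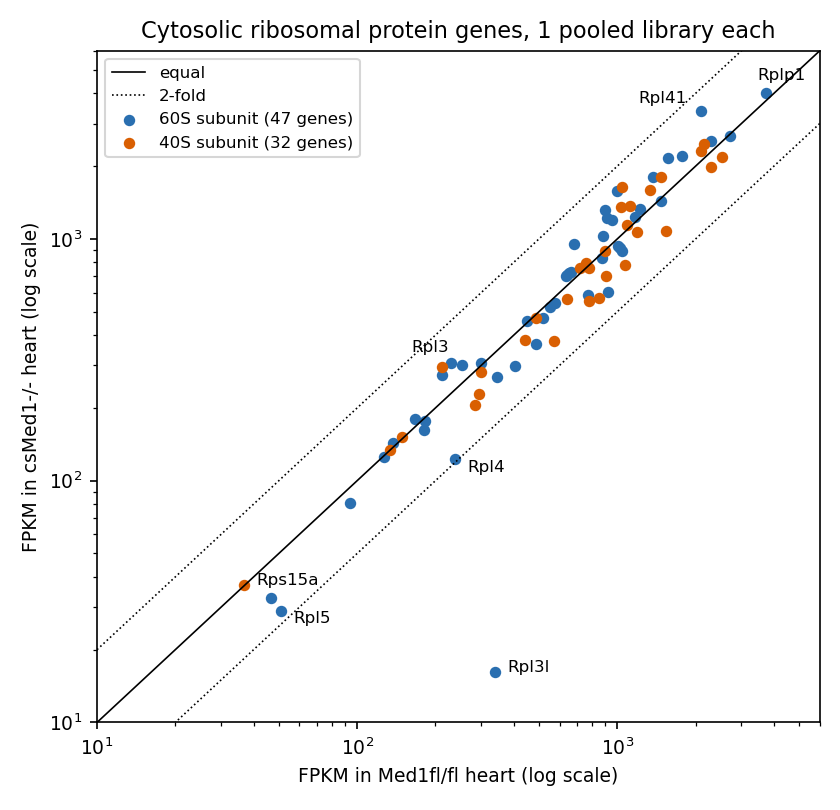
FPKM of the 79 ribosomal protein genes kept, in the control library (x axis, log scale) and in the csMed1-/- library (y axis, log scale), with 60S genes in blue and 40S genes in orange. The solid line marks equal levels and the dotted lines a 2-fold difference; Rpl3l is the only point outside the dotted lines.

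The median log2 ratio of the 79 genes was -0.0019, with 40 genes lower and 39 higher in csMed1-/- heart, and 53.2% of all genes kept were lower. This median has no fixed sign, since it was 0.12, with 27 genes lower and 52 higher, when both libraries were scaled to an equal sum. The middle of the distribution ran from -0.21 to 0.18, an interquartile range (IQR) of 0.39, against an IQR of 1.26 for all genes kept and 1.48 for the 1223 genes that reached 100 FPKM in either library. Within 1.5-fold stood 71 ribosomal protein genes (89.9%), compared with 46.5% of all genes kept and 40.1% of the genes at 100 FPKM or more. Of those abundant genes 59.9% differed by over 1.5-fold either way, 28.1% were lower by over 1.5-fold and 38.0% differed by over 2-fold either way. Genes could enter this abundant set through a high value in only the control or only the csMed1-/- library, which can widen its spread. It was not matched to the members in level. With 1 FPKM required in both libraries, the IQR of all genes was 1.13. The 60S genes had a median of 0.03 (47 genes) and the 40S genes a median of -0.02 (32 genes). Over the 78 genes other than Rpl3l, log2 FPKM in the 2 libraries had a Pearson's r of 0.977 and a Spearman's rho of 0.966, as a description of points that share both libraries.

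The proteins of the mitochondrial ribosome, which translates the few mRNAs of the mitochondrial genome, had lower ratios. Of their 74 genes 73 were kept, with a median log2 ratio of -0.64 and an IQR of 0.99. Lower levels in csMed1-/- heart were seen for 57 of them, where 53.2% of all genes kept were lower. By over 2-fold 24 were lower, against 18.0% of all genes kept, and none was higher, against 13.6%. Within 2-fold stood 67.1% of the set, close to the 68.5% of all genes kept. With 1 library a genotype the difference between the cytosolic and mitochondrial sets was described and not tested.

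**Figure D2:**
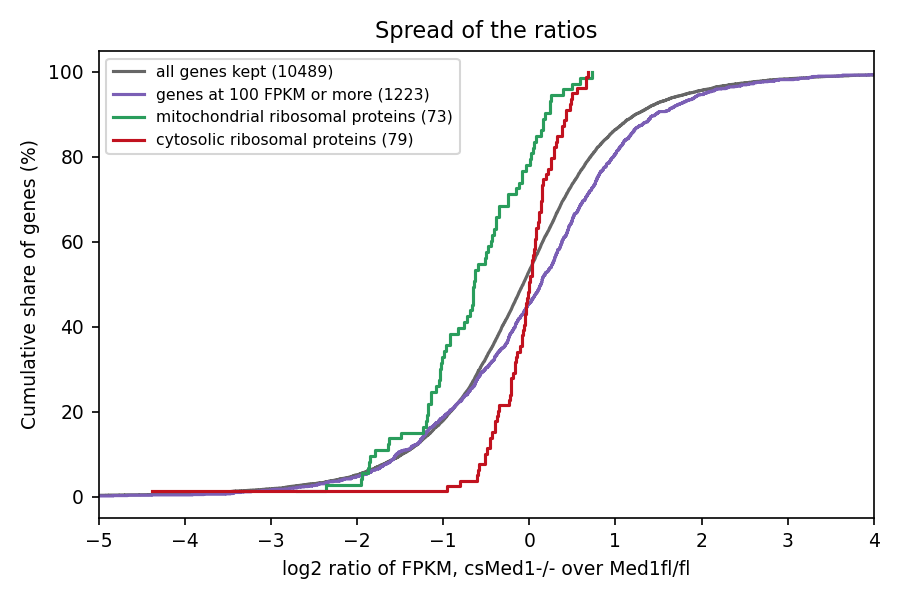
Cumulative share of genes (y axis, percent) at or below a given log2 ratio of FPKM, csMed1-/- over Med1fl/fl (x axis, cut at -5 and 4), for 4 sets of genes whose numbers stand in the key. The curve of the 79 cytosolic ribosomal protein genes is the steepest around 0, and that of the 73 mitochondrial ribosomal protein genes lies to the left with its median at -0.64.

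In sum the 81 genes held 68762 FPKM in Med1fl/fl and 72582 FPKM in csMed1-/- heart. Of all summed FPKM they made up 8.81% in the Med1fl/fl library and 10.1% in the csMed1-/- library, while the FPKM of all genes summed to 780366 and 716365. The direction rested on the most abundant genes: when the 100 highest genes, members among them included, were left out of both sums, the share was 8.80% and 8.61%. Among the 100 highest genes of a library, 13 were ribosomal protein genes in control and 20 in csMed1-/- heart. The median ribosomal protein gene stood at 761 FPKM in Med1fl/fl and 720 FPKM in csMed1-/- heart, where the median of all genes kept was 8.58 and 8.06 FPKM. The 40S genes summed to 29934 and 29685 FPKM and the 60S genes to 38829 and 42898 FPKM.

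The most abundant member in both libraries was Rplp1, an acidic protein of the stalk on which elongation factors dock, at 3716 FPKM in Med1fl/fl and 4028 FPKM in csMed1-/- heart. Next in control came Rpl36 of the 60S subunit, with 2718 and 2675 FPKM. Rps2, which lines the channel where mRNA enters the 40S subunit, followed at 2518 FPKM in Med1fl/fl and 2178 FPKM in csMed1-/- heart. The order was not the same in the csMed1-/- library, where Rpl41 with 3365 FPKM came after Rplp1. Rps29, a zinc-binding 40S protein, had 2284 FPKM in Med1fl/fl and 1975 FPKM in csMed1-/- heart. Rplp2, the partner of Rplp1 in the stalk, had 2283 and 2550 FPKM, and Rps15 of the decoding region had 2154 and 2461 FPKM. At the other end of the genes kept in control stood Rps15a (36.7 and 36.9 FPKM), Rpl22 (46.8 and 32.9 FPKM) and Rpl5 (50.8 and 29.0 FPKM). In csMed1-/- heart the lowest was Rpl3l, at 16.1 FPKM. The levels of members thus spanned a wide range within each library. In control heart the FPKM of a member had a Pearson's r of -0.40 with the length of its chosen GENCODE transcript over 78 genes. FPKM is itself divided by a length, taken from the UCSC annotation, so a negative r can be built in. It is not read as a property of the longer members.

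Rpl3l (ENSMUSG00000002500.15, GRCm38 chr17:24727820-24736143, plus strand) was the gene set apart. Its level was 337 FPKM in Med1fl/fl and 16.1 FPKM in csMed1-/- heart, a log2 ratio of -4.39 or 20.9-fold lower. It held position 53 from the lowest ratio of the 10489 genes kept. Of the 1223 genes at 100 FPKM or more in either library it held position 5, but it entered that set through the control library alone. Ordered by level, it was gene 354 of 22882 in control and gene 3795 in csMed1-/- heart. Rpl3l was listed on 2 lines of the files, which were summed. The larger had 335 FPKM in Med1fl/fl and 12.6 FPKM in csMed1-/- heart (log2 ratio -4.73), and the smaller had 2.56 and 3.55 FPKM (log2 ratio 0.47), so the difference lay in the larger one.

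In RNA of whole hearts, fewer cells of a type and less RNA per cell cannot be told apart. Beside the value of Rpl3l stand those of the other cardiomyocyte genes. All 6 markers kept (Tnnt2, Tnni3, Myl2, Ryr2, Atp2a2 and Pln) were lower by over 2-fold in csMed1-/- heart, against 18.0% of all genes kept. Their log2 ratios ran from -3.91 for Atp2a2 to -1.03 for Tnnt2, with a median of -3.01. The paper lists Ryr2, Atp2a2 and Pln as lower in this same comparison, so their direction was known beforehand. Tnnt2, Tnni3 and Myl2 ran from -2.74 (Tnni3) to -1.03 (Tnnt2). Actc1, a marker of the same list, was listed at 0 in control and at 9189 FPKM in csMed1-/- heart, and it was left out of these counts. Myl2, the ventricular myosin light chain, had 20467 FPKM in Med1fl/fl and 6571 FPKM in csMed1-/- heart, so a defining gene of heart muscle was abundant in both libraries. A 0 for so abundant a gene may be a failed estimate, so the list was summed without it, to 37471 FPKM in Med1fl/fl and 9530 FPKM in csMed1-/- heart, where Actc1 would raise the latter to 18719 FPKM. The fibroblast markers had 4 of 8 genes higher and 1 lower by over 2-fold (summed 503 and 1193 FPKM), the endothelial markers had 2 of 6 lower (466 and 384 FPKM), the macrophage markers had 1 of 7 higher (333 and 382 FPKM) and the smooth muscle markers had 2 of 4 higher and 1 lower (604 and 1024 FPKM). The larger smooth muscle sum in csMed1-/- heart rested on Cnn1 (4.32 and 622 FPKM). Tagln was also higher (23.8 and 89.7 FPKM), while Acta2 (573 and 310 FPKM) and Myh11 (3.68 and 1.79 FPKM) were lower. No lymphocyte marker was kept (their sum was 0.803 FPKM in csMed1-/- heart), and Alas2, the erythroid marker measured, had 35.8 and 82.1 FPKM. The part of these cell types in the value of Rpl3l and of the other members was not tested.

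Rpl3 (GRCm38 chr15:80077791-80091868, minus strand), the ubiquitous parent of Rpl3l and a protein near the peptidyl transferase centre, had 252 FPKM in Med1fl/fl and 301 FPKM in csMed1-/- heart, a log2 ratio of 0.26. Rpl3l therefore made up 57.2% of the FPKM of the pair in control and 5.09% in csMed1-/- heart. The pair summed to 590 FPKM in Med1fl/fl and 317 FPKM in csMed1-/- heart (log2 ratio -0.89), so the level of Rpl3 differed by less than that of Rpl3l and in the opposite direction. The coding sequences of both genes were aligned to see whether reads of one could be counted for the other: 891 of 1209 aligned bases were identical (73.7%), and the longest identical run had 22 bases, shorter than the 50-base reads. The transcripts shared 0 windows of 50 bases. The first 120 coding bases of each, from GENCODE M21 transcripts, are given below, with the 31 bases at which they differ in capitals. Rpl3 spans chr15:80082466-80083326 (minus strand, spliced) and Rpl3l chr17:24727884-24728433 (plus strand, spliced).
Rpl3: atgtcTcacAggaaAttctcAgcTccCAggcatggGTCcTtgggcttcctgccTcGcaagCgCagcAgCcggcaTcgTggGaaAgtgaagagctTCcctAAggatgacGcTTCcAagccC
Rpl3l: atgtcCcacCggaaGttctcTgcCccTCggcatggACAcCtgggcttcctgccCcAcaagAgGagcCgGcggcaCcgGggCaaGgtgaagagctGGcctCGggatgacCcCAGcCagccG
Capitals are spread over the whole stretch. Of the 50-base windows of the Rpl3 transcript 85.6% also occurred in other annotated genes, against 0% for Rpl3l, so the value of Rpl3 could depend on how reads shared with its pseudogenes were assigned. The check used exact matches, and a read aligned with mismatches could still be shared.

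The other paralogs kept were within 2-fold between the libraries, and so were the parents. Rpl36al, a close copy of Rpl36a, had 229 FPKM in Med1fl/fl and 308 FPKM in csMed1-/- heart (log2 ratio 0.43), and Rpl36a had 167 and 180 FPKM (0.11). The paralog held 57.8% of this pair in control and 63.1% in csMed1-/- heart. Rps27l, a p53 target gene, had 211 and 296 FPKM (0.49) beside Rps27 with 2094 and 2307 FPKM (0.14), or 9.16% and 11.4% of the pair. Both of these paralogs were higher in csMed1-/- heart by a little more than their parents. Rpl22l1, which is known to be held down by Rpl22, had 14.1 FPKM in Med1fl/fl and 17.6 FPKM in csMed1-/- heart (0.32), while Rpl22 had 46.8 and 32.9 FPKM (-0.51), and the share of the paralog was 23.2% and 34.9%. Rpl7l1, related to Rpl7, had 21.0 and 18.5 FPKM (-0.18) and Rpl7 had 450 and 459 FPKM (0.03). Rpl39l, at 0.285 and 0.0459 FPKM, was near 0 beside Rpl39, which had 1371 FPKM in Med1fl/fl and 1806 FPKM in csMed1-/- heart (0.40), the opposite direction to its paralog, and Rpl10l was listed at 0 beside Rpl10 with 911 and 1222 FPKM (0.42). Rpl22l1 and Rpl7l1 were outside the symbol rule. Rpl3l was thus the only paralog kept that differed by over 2-fold.

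**Figure D3:**
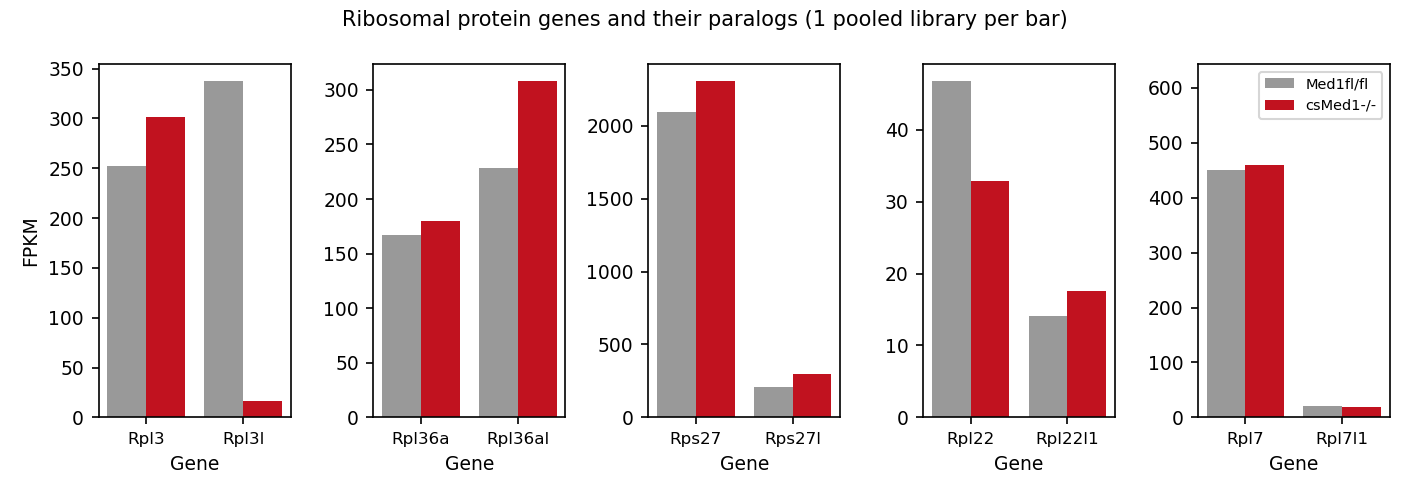
FPKM (y axis, from 0, a scale for each panel) of 5 ribosomal protein genes and their paralogs in the Med1fl/fl library (grey) and the csMed1-/- library (red), 1 pooled library per bar. In the left panel Rpl3l stands at 337 FPKM in Med1fl/fl and at 16.1 FPKM in csMed1-/- heart, and no other panel shows a 2-fold difference.

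Among the other members, the lowest ratios were found in both subunits. Rpl4, which reaches into the wall of the peptide exit tunnel, had 237 FPKM in Med1fl/fl and 123 FPKM in csMed1-/- heart, a log2 ratio of -0.95 and just inside the 2-fold limit. Rpl5, which carries the 5S rRNA into the 60S subunit, had 50.8 and 29.0 FPKM (-0.81). Rpl23a, at the mouth of the tunnel where the signal recognition particle docks, had 924 FPKM in Med1fl/fl and 605 FPKM in csMed1-/- heart (-0.61). These 3 and Rps6, with Rpl3l, were the 5 members lower by over 1.5-fold, where 29.7% of all genes kept were lower by as much. Rps6, the 40S protein phosphorylated by the S6 kinases, had 571 and 377 FPKM (-0.60). Rpl22 is given above.

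Higher by over 1.5-fold were 3 members, where 23.7% of all genes kept were higher by as much. Rpl41, the smallest ribosomal protein, had 2101 FPKM in Med1fl/fl and 3365 FPKM in csMed1-/- heart (0.68). Rpl19, a 60S protein that bridges to the 40S subunit, had 996 and 1576 FPKM (0.66). Rps14, on the platform of the 40S subunit, had 1046 and 1646 FPKM (0.65). Below them came Rpl10a with 896 and 1316 FPKM (0.56), Rpl13a, also known for a role outside the ribosome in silencing inflammatory mRNAs, with 680 and 957 FPKM (0.49), and Rps27l. None of the 6 was past 2-fold, and no sign of the genes named here at either end depended on the library scaling. In all, 27 members were lower and 35 higher under each of 5 scalings, and for the remaining 17 the sign depended on the scaling, with all 17 within a log2 ratio of 0.12 of 0.

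**Figure D4:**
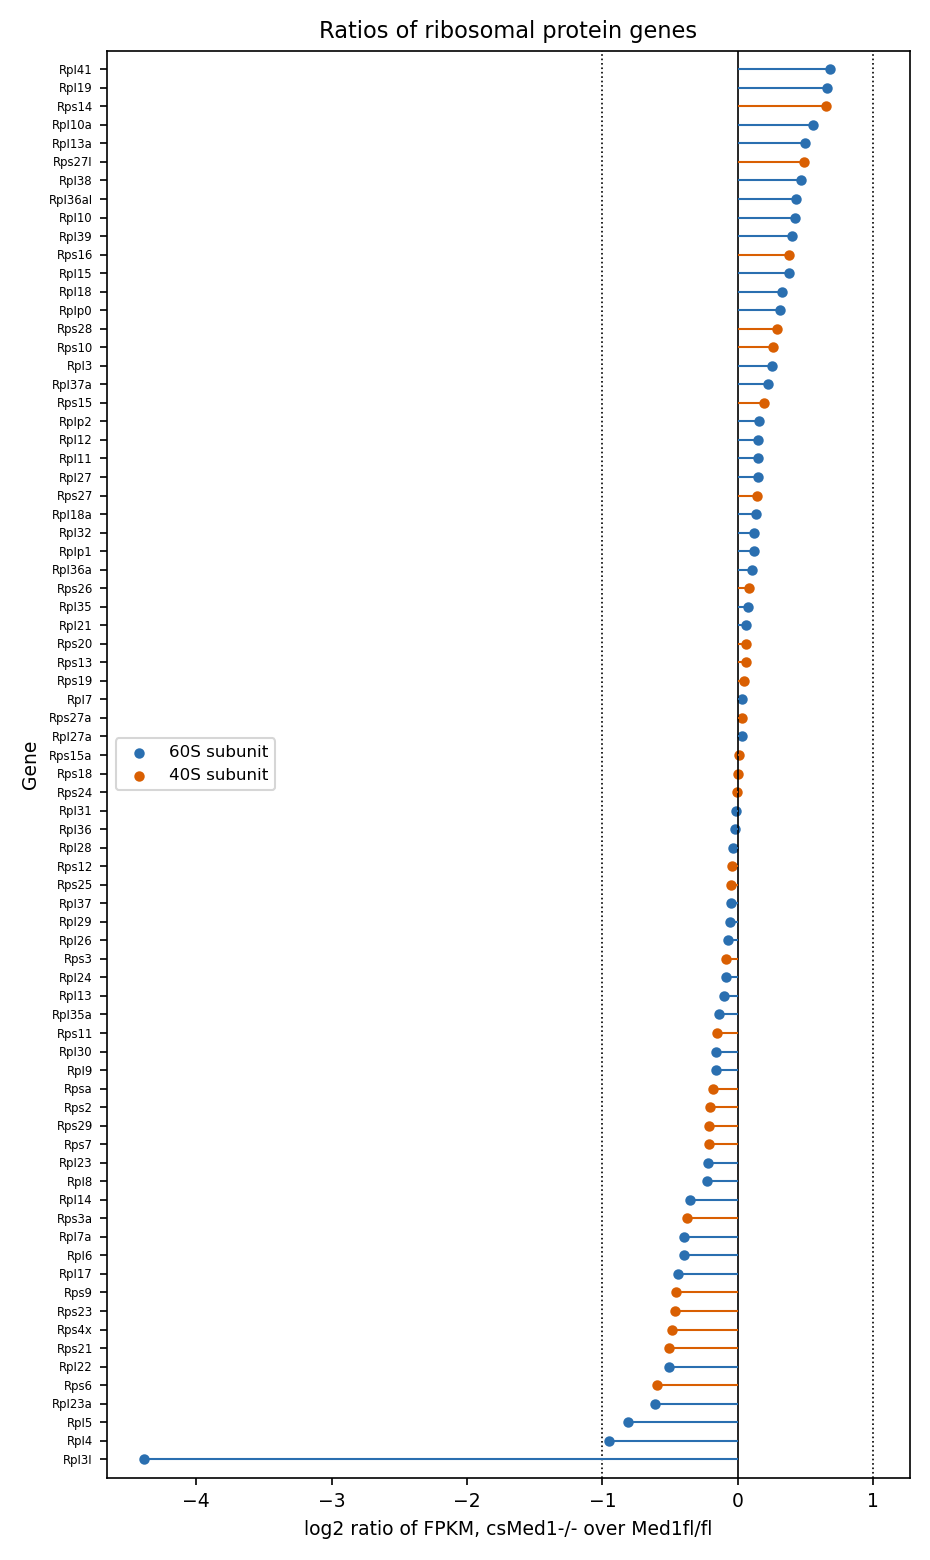
Log2 ratio of FPKM, csMed1-/- over Med1fl/fl (x axis), of 76 of the ribosomal protein genes kept (y axis, ordered by ratio), with 60S genes in blue and 40S genes in orange. Dotted lines mark a 2-fold difference; Rpl3l at -4.39 lies outside them, while the others pass without a step from Rpl4 at -0.95 to Rpl41 at 0.68.

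Grouped by place in the ribosome, the members of a site mostly did not move as a block. The 4 genes of the P stalk and its base, where elongation factors are recruited, were higher in csMed1-/- heart under every scaling, by small amounts: Rplp0 had 1767 FPKM in Med1fl/fl and 2194 FPKM in csMed1-/- heart (0.31), and Rplp1, Rplp2 and Rpl12 had log2 ratios of 0.12, 0.16 and 0.15. Of the 5S particle, Rpl5 was lower (-0.81) and its partner Rpl11 was at 639 and 708 FPKM (0.15); free Rpl5 and Rpl11 bind Mdm2 when ribosome assembly is disturbed. Of 8 genes around the peptide exit tunnel 5 were lower and 3 higher, from Rpl4 (-0.95), Rpl23a (-0.61) and Rpl17 (-0.44) at the low end, through Rpl26 (-0.07), Rpl31 (-0.02) and Rpl35 (0.08), to Rpl39 (0.40) and Rpl19 (0.66) at the high end. The signs of Rpl26 and Rpl31 changed with the scaling.

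At the mRNA entry channel of the 40S subunit Rps2 had a log2 ratio of -0.21, while Rps3 (298 and 281 FPKM, -0.08) changed sign with the scaling. Rps12, another 40S protein, had a ratio of -0.04 that changed sign too. At the exit site Rps14 (0.65), Rps28 (0.29) and Rps26 (0.08) were higher and Rps21 (1537 and 1080 FPKM, -0.51) and Rpsa (-0.19) lower. A list of 9 members known to be mutated in Diamond-Blackfan anaemia, a failure of red cell production caused by too little of 1 ribosomal protein, was also examined; it is not complete, as other members are known in this disease. Of these 9, 5 were lower and 4 higher, and the largest difference was that of Rpl5. Rps10 had 1330 and 1590 FPKM (0.26), Rps7 had a ratio of -0.22, Rps19 of 0.05, and Rps24 was at 134 and 133 FPKM (-0.01, a sign that depended on the scaling). No site held a member past 2-fold.

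Ribosomal proteins whose symbols fall outside the rule were measured too. Fau, a fusion of a ubiquitin-like protein with a 40S protein, had 869 and 1326 FPKM (0.61). Gnb2l1, which encodes the 40S scaffold Rack1, had 865 and 1172 FPKM (0.44). The joint entry of Rpl34 with a pseudogene had 936 and 872 FPKM (-0.10), and the entry named Rps4y2 had 88.6 and 110 FPKM (0.32). These 4 entries were within 2-fold as well.

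Ribosomal protein genes have many near-identical processed copies in the genome, and GENCODE M21 names 301 such pseudogenes. Of the 79 members kept, 43 had over 50% of their 50-base windows in other annotated genes, with a median of 52.9% and a highest share of 98.6% for Rps27. The levels of such members are uncertain, since short reads can be split between copies. Pseudogenes listed in the files had levels of their own, such as Rpl31-ps12 with 115 FPKM in Med1fl/fl and 110 FPKM in csMed1-/- heart, close to the 126 and 125 FPKM of Rpl31 itself, and Rps15a-ps6 with 46.6 and 45.4 FPKM, above Rps15a. The log2 ratio of a member had a Pearson's r of -0.02 with the share of its windows found elsewhere (78 genes). The 43 members with over 50% of shared windows had a median ratio of -0.02 and the 35 others besides Rpl3l one of 0.03.

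Other features were set beside the ratios in the same way, as descriptions over the 78 genes that share both libraries. The log2 ratio had a Pearson's r of -0.12 with transcript length and 0.27 with GC content. Introns of ribosomal protein genes often hold small nucleolar RNAs, which guide the modification of rRNA. The 30 members that host one or more had a median ratio of -0.07 and the 48 that host none one of 0.03.

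The promoters of the members were read from RefSeq (GRCm38.p6), as 250 bases before to 50 bases after the transcription start. A promoter was found for 61 of the 81 members. A pyrimidine tract, defined as a C followed by at least 7 C or T on the given strand between 20 bases before and 50 bases after a start, was found in 47 of the 61 (77.0%) and in 22.7% of all 27025 genes. A 5′ TOP mRNA begins at such a tract, but a match in the sequence is not a mapped mRNA end. Windows of 30 bases near the start (GRCm38, gene strand) are given for 3 members of low ratio, 1 of the P stalk, 1 with equal levels and 3 of high ratio, with the tract in capitals.
Rpl4, chr9:64173367-64173396, plus strand: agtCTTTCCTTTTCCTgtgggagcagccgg
Rpl5, chr5:107900508-107900537, plus strand: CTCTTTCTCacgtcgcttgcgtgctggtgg
Rps6, chr4:86857349-86857378, minus strand: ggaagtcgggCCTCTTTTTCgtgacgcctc
Rps18, chr17:33955647-33955676, minus strand: tcacttccgCTCTCTCTTCCacaggaggcc
Rplp2, chr7:141447637-141447666, plus strand: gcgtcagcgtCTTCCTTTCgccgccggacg
Rpl13a, chr7:45128722-45128751, minus strand: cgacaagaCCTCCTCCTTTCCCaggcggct
Rpl10a, chr17:28328572-28328601, plus strand: aagcgctctgCCTTCTTTCCggtttccgcg
Rpl19, chr11:98026904-98026933, plus strand: gggcttgggCTCTCCCCTTCgcagataatg
Such a tract stood near the start of members at both ends of the ratios. Without Rpl3l, the 46 kept members with a tract had a median log2 ratio of 0.02 (IQR 0.41), and the 12 without one a median of -0.09 (IQR 0.44).

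The motif CCGGAAG, which ETS factors bind, was searched on both strands and was present in 25 of the 61 promoters (41.0%), against 9.93% of all genes. The 24 kept members with it, Rpl3l aside, had a median ratio of 0.01 and the 34 without it one of 0.00. AAGATGG, the core of the YY1 site, was in 14.8% of member promoters and 7.28% of all. AGGTCA, the core site of nuclear receptors, for which Med1 is a coactivator, was in 11.5% of member promoters and 18.1% of all, and CCAAT in 32.8% and 41.1%. These motifs were searched on both strands. TATAAA, searched on the given strand, was in 8.20% of member promoters and 9.77% of all. Each motif was searched on its own, so that matches to different motifs may overlap, and a gene with several starts was counted when any of them had a match.

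Rpl3l was the only member with a match to the consensus of MEF2, a muscle transcription factor family (1.64% of members and 3.70% of all genes). RefSeq lists 2 starts for it. The 30 bases around the outer start lie at chr17:24727811-24727840 (plus strand, 21 of them in the first, non-coding part of exon 1) and hold AGGTCA on the other strand, in capitals.
Rpl3l, outer start: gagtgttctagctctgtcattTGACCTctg
The inner start lies within the gene. The 250 bases before it, chr17:24732435-24732684 (plus strand), cover 37 bases of coding exon 4 and then an intron of the longer transcript, and hold 3 matches to AGGTCA and the match to the MEF2 consensus, all in capitals. The first AGGTCA lies in the exon and the next crosses its end.
Rpl3l, before the inner start: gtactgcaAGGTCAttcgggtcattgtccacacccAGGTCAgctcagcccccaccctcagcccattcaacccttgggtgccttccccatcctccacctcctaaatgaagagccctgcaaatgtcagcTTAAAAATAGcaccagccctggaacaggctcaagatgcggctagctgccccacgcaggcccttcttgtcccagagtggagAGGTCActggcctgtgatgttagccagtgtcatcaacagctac
The matches describe these letters and no binding was measured.

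Genes that work with the ribosome were described by the same measures, from lists chosen by function. A change of library scaling moves every ratio alike, by -0.04 to 0.12 on the log2 scale. A list median that a shift in this range takes past 0 has no fixed sign. Counts past 2-fold stand beside the 18.0% of all genes kept that were lower and the 13.6% that were higher. Of 41 genes of translation initiation 4 were lower and 3 higher by over 2-fold, with a median of -0.02 and an IQR of 0.99. The lowest was Pabpc4, a poly(A)-binding protein, with 121 FPKM in Med1fl/fl and 26.8 FPKM in csMed1-/- heart (-2.18), followed by Eif4e3 (-1.72), the cap-binding Eif4e (-1.49) and the helicase Eif4a2 (-1.35). The highest was Eif6, which keeps free 60S subunits apart from 40S subunits, with 50.1 and 151 FPKM (1.59), followed by Eif2b2 (1.15) and Eif3d (1.05).

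No gene of 13 of translation elongation was past 2-fold (median 0.05). Eef1a1, the factor that delivers aminoacyl-tRNA in most tissues, had 595 FPKM in Med1fl/fl and 1082 FPKM in csMed1-/- heart (0.86). Eef1a2, its counterpart in adult heart and skeletal muscle, had 1739 and 1367 FPKM (-0.35). Of this pair Eef1a2 had the lower ratio, within the quartiles of all genes kept (-0.72 to 0.55), and Eef1a1 lay above them. Eef1a2 remained the more abundant in both libraries. Eef2, the translocase, had 1458 and 1513 FPKM (0.05), Eef2k, the kinase that inhibits it, had a ratio of -0.69, and Eif5a had one of 0.62.

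Of 17 5′ TOP mRNAs that do not encode ribosomal proteins, 2 were lower by over 2-fold and none higher, with a median of -0.21. These were Hnrnpa1 (-1.25) and Tpt1, with 1001 FPKM in Med1fl/fl and 468 FPKM in csMed1-/- heart (-1.10), while Eif3h had the highest ratio (0.89), followed by Eef1a1. Of 25 factors that act on the nascent chain, Srp72 of the signal recognition particle was lower (-1.38) and Ssr4 of the translocon higher (1.30) by over 2-fold, with a median of -0.00; next came the chaperone Hspa8 (-0.91) and Ssr2 (0.85).

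**Figure D5:**
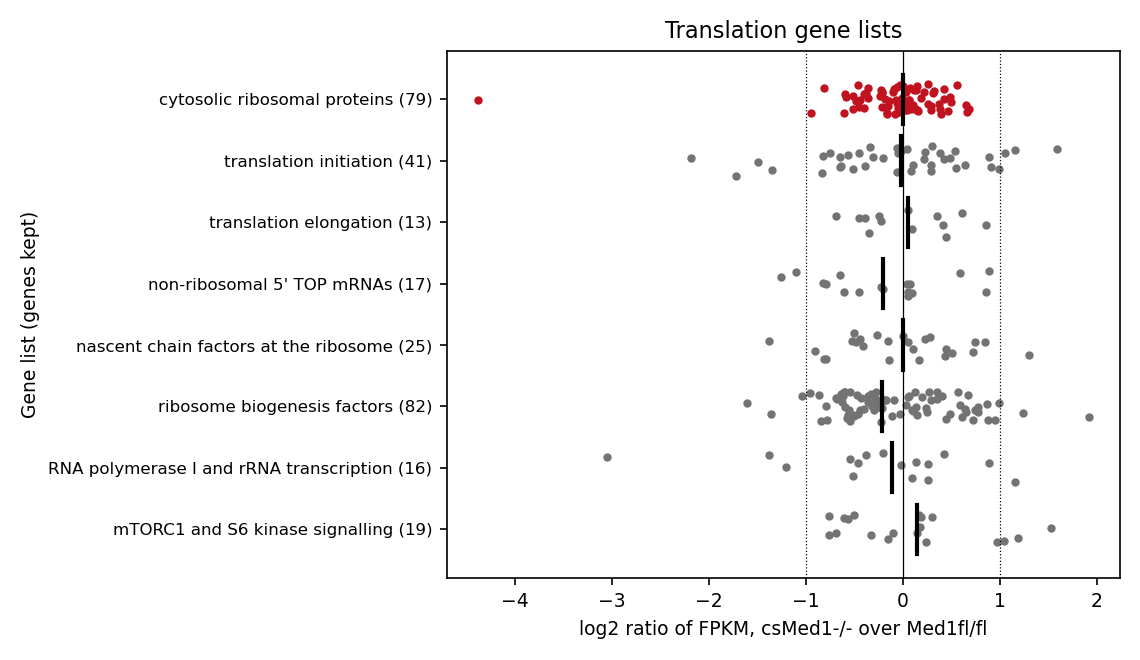
Log2 ratio of FPKM, csMed1-/- over Med1fl/fl (x axis), of the kept genes of 8 lists (y axis, with the number of genes), 1 point per gene, where the vertical scatter within a list has no meaning, black bars are medians and dotted lines mark a 2-fold difference. Apart from Rpl3l at -4.39 the cytosolic ribosomal proteins lie inside the dotted lines, and each of the other lists except elongation has points outside them.

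Of 82 factors of ribosome biogenesis 3 were lower and 2 higher by over 2-fold, with a median of -0.21. The 3 lower genes were Nvl (1.91 and 0.630 FPKM, -1.60), the pseudouridine synthase Dkc1 (1.02 and 0.398 FPKM, -1.35) and the 60S export adapter Nmd3 (1.29 and 0.628 FPKM, -1.04). All 3 passed the filter of 1 FPKM through the control library alone, so their count cannot be read as a result. Higher were Bop1, with 23.1 FPKM in Med1fl/fl and 87.5 FPKM in csMed1-/- heart (1.92), and Nle1 (1.24). Of 16 genes of RNA polymerase I and rRNA transcription, Taf1a (1.86 and 0.224 FPKM, -3.06, kept through the control library alone), the catalytic subunit gene Polr1a (-1.38) and Polr1e (-1.20) were lower and Polr2l, a subunit shared by all 3 nuclear polymerases, was higher (1.16) by over 2-fold.

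Genes of mTORC1, which controls the translation of the ribosomal protein mRNAs, were listed together with those of S6 kinases. Of these 19 genes 3 were higher by over 2-fold, close to the 13.6% of all genes kept, and none was lower (median 0.15). Rps6kb2 had 11.0 FPKM in Med1fl/fl and 31.8 FPKM in csMed1-/- heart (1.53), Rps6ka3 had 0.777 and 1.78 FPKM (1.19) and was kept through the csMed1-/- library alone, and Mtor had 12.0 and 24.8 FPKM (1.04). Rps6kb1, the other S6 kinase gene, stood below the filter at 0.329 and 0.565 FPKM. The lowest ratios were those of Mlst8 (-0.76) and Rragd (-0.76), Larp1, which binds the 5′ TOP sequence, had one of -0.68, and the inhibitor of cap-dependent initiation Eif4ebp1 one of 0.30. Myc, a transcription factor of ribosomal genes, had 1.38 FPKM in Med1fl/fl and 3.91 FPKM in csMed1-/- heart (1.51).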

How the data were processed

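Per the authors, oligo-dT selected heart RNA pooled from 5 mice per genotype was sequenced as 50-base single-end directional reads, aligned to mm10 (GRCm38) with TopHat 2.0.8b, and turned into the deposited FPKM values of known genes (UCSC annotation) with Cufflinks and cuffdiff 2.1.1. The submitters' processing notes also name STAR 2.4.0h and Bowtie2, with no role, and DESeq2. The library scaling of cuffdiff is not given in the sources used here, and a 0 can be a failed estimate.

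The 23424 lines of each library were summed by symbol (412 symbols were on several lines). Log2 ratios were taken without a pseudocount. Lengths, windows and coding sequences came from GENCODE M21, promoters from RefSeq, with Python 3.11.15, numpy 2.4.6 and pandas 2.3.3. The scripts were tested on simulated data. Read counts are unknown, so no interval was given, and with 1 library per genotype no test. Members, gene lists and marker lists were chosen with earlier results of these data known. Genes were named by a rule on the highest and lowest ratios, the highest levels and the lists. Alternatives covered the pseudocount (0.1 or 1), the filter, the scaling, summing, the members and the fold. Values of a few genes are not reported here.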

Additional observations from a re-analysis of the deposited data

How the results depend on the processing

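No paired analysis was possible because each genotype has 1 pooled library, and for the same reason no replicate could be left out. Of 122 alternative values 105 moved by less than 0.1 on the log2 scale, 10% of a share or 1.5 times a count, and 17 moved by more. The log2 ratio of Med1 was -2.77 with a pseudocount of 0.1, -1.63 with one of 1, and -2.92 when FPKM were scaled to an equal sum in both libraries. With that scaling the median of the ribosomal proteins, which has no fixed sign, was 0.12 (it was 0.07 centred on all genes and 0.03 at 100 FPKM or more), and Rpl3l stood at -4.26. With the larger Rpl3l line alone its ratio was -4.73 and its share of the pair with Rpl3 in csMed1-/- heart 4.01%. Members lower by over 2-fold numbered 2 with no filter (Rpl39l added), 0 without the paralogs and 5 at 1.5-fold, and 3 were then higher. The members' share was 10.6% in control and 12.6% in csMed1-/- heart when only genes at 100 FPKM or more in either library entered the sums, 9.79% and 11.2% with ribosomal proteins outside the symbol rule added, and 8.80% and 8.61%, the opposite direction, when the 100 highest genes, members included, were left out of the sums. Without the members with over 50% shared windows, an alternative added after seeing the data, 17 were lower because fewer were counted. No pseudocount was run for the shares. The number lower was 31 with ratios centred on the median of all genes, 44 with the 75th percentile, 27 with equal sums and 41 with the 100 highest genes left out.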
